A study of Mus musculus with 12 samples.

Results

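The genes studied here are 9 genes by which leukocytes hold on to vessel walls and to each other: the integrin subunits Itgam, Itgal, Itgb2, Itga4 and Itgb7, the integrin ligands Icam1, Icam2 and Vcam1, and Selplg, a ligand of selectins. They were chosen by symbol, and all 9 were found among 22946 genes, of which 12775 were abundant enough to be tested, all 9 members included. mRNA was sequenced from epididymal white adipose tissue (eWAT), the fat pad beside the epididymis, of 12 male C57BL/6J mice that were 21 weeks old. The mice had received 1 of 4 diets for 16 weeks: a normal diet (ND), a high-fat diet (HFD), the HFD with 1.5% (w/w) of an ethanol extract of chrysanthemum leaf (CLE), or the HFD with 0.003% (w/w) luteolin (LU), a plant flavonoid. Each diet had 3 sequenced mice, which the methods describe as representative of larger groups, and the HFD was shared by the HFD, CLE and LU mice. The comparison of HFD with ND asks what the diet changed, and the comparisons of CLE and of LU with HFD ask what each supplement changed on top of it. The tissue was taken whole, so fat cells, vessels and leukocytes were measured together.

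An integrin is a pair of an α and a β subunit that sits in the cell membrane and grips its ligand once the cell is activated. The β2 subunit Itgb2 pairs with Itgal to form LFA-1, the main integrin of lymphocytes, with Itgam to form Mac-1 of monocytes, macrophages and neutrophils, and with Itgax or Itgad in subsets of myeloid cells. Itga4 pairs with Itgb1 or Itgb7. On the other side of the contact, Icam1 and Icam2 are read by β2 integrins and Vcam1 by α4 integrins, while Selplg encodes PSGL-1, the protein on leukocytes that selectins catch before integrins take hold. In obese fat, macrophages accumulate and are known for Itgam and Itgax.

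The values are FPKM, a measure of abundance that the authors' software normalized to transcript length and to library size. The values can therefore be compared between genes, whereas the number of reads behind each value is unknown and no counting error can be given. Libraries of 1 group correlated with r between 0.978 and 0.991 over the genes tested. Adipocyte markers were abundant in all 12 libraries, and epididymis markers summed to at most 5.36 FPKM, with Lcn5 and Spinkl listed at 0 in every library. Mouse 11 of the CLE group stood apart from CLE mice 2 and 4 in Itgb2 and Itgax, and mouse 8 of the LU group was the highest of its group in both. For LU mouse 2, CLE mouse 4 and ND mice 3 and 4 the labels carry an additional letter R whose meaning was not given. None of the HFD libraries has it. The column headers of the libraries with the letter R also share a string of digits, not explained either, that no other column used here has.

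The HFD raised Itgb2, Itgam, Selplg and Itga4 most and Itgb7, Vcam1 and Itgal less, and it lowered Icam2. Of the 9 members, 7 were higher and Icam2 was lower in HFD than in ND, at an adjusted p under 0.05 and a fold over 1.5 in limma, and Icam1 did not pass. Among all genes tested 25.6% passed, 14.9% as higher and 10.8% as lower. The values of HFD and ND were fully separated in 8 of the 9 members, against 59.5% of all genes. The median difference of the members was 1.01 on the log2(FPKM + 1) scale, and the median of all genes tested was -0.02. Without the libraries with the letter R, ND mouse 2 is the only ND mouse. The median difference of the members was then 1.22, against -0.02 for all genes. In whole tissue fewer cells of a type and less RNA per cell cannot be told apart, and this holds for every difference below. The p-values measure the spread between the mice of a group.

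**Figure D1:**
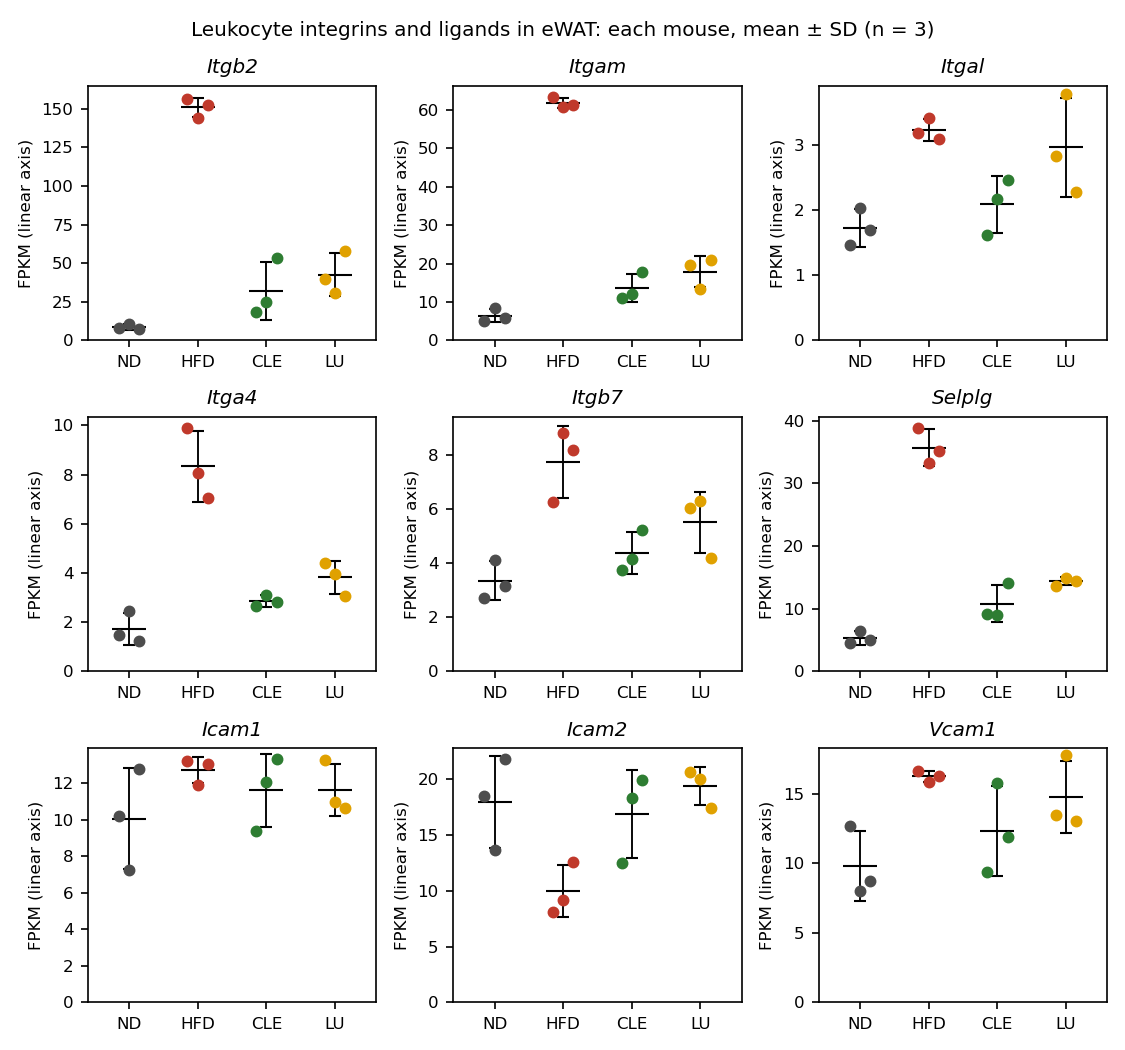
Level of each of the 9 genes in FPKM (linear axis from 0) in every mouse of the 4 diets, with 1 point per mouse and the mean ± SD of 3 mice in black. Itgb2, Itgam, Selplg and Itga4 stand far above all other mice in HFD, Icam2 is lowest there, and Icam1 overlaps between all diets.

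Itgb2, the shared β subunit of 4 leukocyte integrins, had the largest change of the members. Its level was 7.98, 10.7 and 7.59 FPKM in the 3 ND mice and 156, 144 and 152 FPKM in the 3 HFD mice. CLE mice had 18.4, 24.8 and 53.6 FPKM, and LU mice had 39.5, 30.5 and 57.6 FPKM. The 4 diets thus formed a low ND group, a high HFD group and 2 groups between them, without overlap between HFD and any other diet. Itgb2 was 17.2-fold higher in HFD than in ND by the ratio of means, a log2 difference of 3.97 ± 0.32 (SE, adjusted p = 2.7e-06, limma). It fell by 2.33 on the log2 scale in CLE (adjusted p = 0.000275) and by 1.85 in LU (adjusted p = 0.00191) against HFD. Itgb2 lies on chromosome 10 from 77530252 to 77565708 (GRCm38, plus strand), and these coordinates, like those that follow, are those of the GENCODE M21 gene.

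Itgam encodes the α subunit CD11b of Mac-1. It measured 5.07, 8.36 and 5.83 FPKM in ND and 63.3, 60.7 and 61.2 FPKM in HFD, so the HFD mice differed by less from each other than from any other mouse. In CLE the levels were 11.01, 12.0 and 17.8 FPKM and in LU 19.5, 13.3 and 20.8 FPKM, all below every HFD mouse and above every ND mouse. The log2 difference was 3.10 ± 0.21 in HFD against ND (9.61-fold, adjusted p = 8.9e-07), -2.13 in CLE against HFD (adjusted p = 3.5e-05) and -1.76 in LU against HFD (adjusted p = 0.000237). Itgam was called in these 3 comparisons under every alternative tried. The gene spans 128062640 to 128118491 of chromosome 7 (plus strand) and overlaps another gene, Gm49368, on the same strand, so reads there could be split between them.

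For Itgam the RefSeq table of 300-base windows around start sites (GRCm38.p6) held a sequence, and its 250 bases before the start are printed because Itgam is an α subunit whose level changed steeply. Capitals mark GAGGAA, the purine-rich core bound by the myeloid factor PU.1, on either strand. For comparison the same stretch of Icam1, the member that was not called in any comparison, is given.
Itgam chr7:128062390-128062639 (plus strand): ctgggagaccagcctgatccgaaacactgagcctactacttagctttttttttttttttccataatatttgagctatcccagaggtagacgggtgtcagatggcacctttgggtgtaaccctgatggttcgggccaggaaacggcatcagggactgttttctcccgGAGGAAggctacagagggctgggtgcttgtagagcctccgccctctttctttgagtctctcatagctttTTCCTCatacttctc
Icam1 chr9:21015690-21015939 (plus strand): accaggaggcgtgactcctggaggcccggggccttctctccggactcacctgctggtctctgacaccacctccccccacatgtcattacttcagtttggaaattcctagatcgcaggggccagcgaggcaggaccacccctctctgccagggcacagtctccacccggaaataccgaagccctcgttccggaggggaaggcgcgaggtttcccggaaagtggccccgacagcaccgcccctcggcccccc
GAGGAA occurred 3 times in the whole 300-base window of Itgam, 1 time in that of Itgb7 and not in those of Itga4 and Icam1, and 28.3% of 32851 windows of mouse genes hold it. For NF-κB only 1 fixed letter pattern was searched. It was in none of these 4 windows and in 20.7% of all windows, also counted on both strands. Sites whose letters differ from this pattern would be missed. Its absence therefore does not show that these windows, that of Icam1 included, lack NF-κB sites. Icam2, Itgal, Itgb2, Selplg and Vcam1 were not in the table. A match is a description of letters and not a site.

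Itgal, the α subunit CD11a of LFA-1, changed far less than its β partner. ND mice had 1.46, 2.04 and 1.70 FPKM and HFD mice 3.18, 3.42 and 3.10 FPKM. CLE mice measured 1.62, 2.17 and 2.47 FPKM, and LU mice 2.83, 3.79 and 2.28 FPKM, so that LU overlapped HFD while CLE did not. The log2 difference in HFD against ND was 0.64 ± 0.14 (1.87-fold, adjusted p = 0.00342), and this call was lost at a pseudocount of 5 (0.29), after quantile normalization (0.56) and without ND mouse 2 (0.56), in each case because the fold fell under the threshold. In CLE against HFD Itgal was 0.46 lower with an adjusted p of 0.0277 and a fold below the threshold, and in LU against HFD the estimate was -0.11 (95% interval -0.43 to 0.20). Itgal lies on chromosome 7 from 127296260 to 127335138 (plus strand).

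The 4 α subunits that pair with Itgb2 changed their proportions while their sum kept pace with the β subunit. Itgax, the subunit CD11c of macrophages and dendritic cells, rose from 2.11 ± 0.43 FPKM (SD, n = 3) in ND to 83.8 ± 16.6 FPKM in HFD, and Itgad, the subunit CD11d, from 0.055 ± 0.050 to 16.5 ± 3.98 FPKM. Their log2 differences were 4.76 and 4.03 (adjusted p = 1.2e-05 and 8.4e-06, limma). The sum of Itgam, Itgal, Itgax and Itgad per Itgb2 was 1.18 ± 0.15 in ND, 1.09 ± 0.085 in HFD, 0.956 ± 0.078 in CLE and 0.941 ± 0.027 in LU, and the ND and HFD mice overlapped (exact permutation p = 0.6, two-sided). The CLE and LU mice lay below the HFD mice in this ratio (exact permutation p = 0.1 each, the smallest that 3 against 3 can give). Each α FPKM depends on the length assigned to its transcripts, so the value near 1 rests on that correction.

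Within that sum, Itgam made up 61.8 ± 5.1% in ND and 37.6 ± 3.5% in HFD, Itgax 20.8 ± 4.4% and 50.4 ± 4.2%, Itgad 0.592 ± 0.517% and 10.02 ± 2.29%, and Itgal 16.9 ± 0.6% and 1.98 ± 0.30%. None of the 4 shares overlapped between ND and HFD (exact permutation p = 0.1 each). Itgam thus went from the most abundant α transcript to the second after Itgax, although its own level rose. In CLE the Itgam share was 58.7, 55.8 and 33.8%, and the Itgax share 30.6, 31.8 and 56.5%. CLE mouse 11, with 53.6 FPKM of Itgb2, therefore had proportions of Itgam and Itgax close to those of HFD, whereas in CLE mice 2 and 4 the Itgax share lay between those of ND and HFD and the Itgam share of mouse 2 lay within the ND range. Without CLE mouse 11 the CLE means were 57.2% for Itgam and 31.2% for Itgax, and neither share then overlapped with HFD. In LU the Itgam share was 51.1, 46.2 and 39.6% and the Itgax share 37.1, 35.4 and 46.1%, and the Itgam share overlapped with HFD with LU mouse 8 and not without it. The Itgal share was 7.82 ± 2.81% in CLE and 8.30 ± 4.49% in LU, above every HFD mouse in both. From ND to HFD the mean Itgam and Itgal shares were lower and the mean Itgax and Itgad shares higher also in 3 other ways of summing transcripts, while their sizes moved. Counting only transcripts that GENCODE assigns to each gene gave an Itgam share of 54.0% in ND and 36.9% in HFD and an Itgal share of 20.3% in ND and 2.003% in HFD. Without assembled transcripts that differ from the annotated ones the Itgax share was 13.3% in ND and 49.3% in HFD, and the Itgad share in CLE was 1.77%. With the single transcript of highest mean for each gene, the Itgal share was 8.57% in ND, 1.28% in HFD, 4.47% in CLE and 3.85% in LU, and the α sum per Itgb2 was 0.718 in ND and 0.841 in HFD. The order of Itgam and Itgax in CLE was not stable: Itgam led in the values above and without such assembled transcripts, and Itgax led by GENCODE gene (44.5% against 43.3%) and with the single transcript (49.4% against 43.8%).

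**Figure D2:**
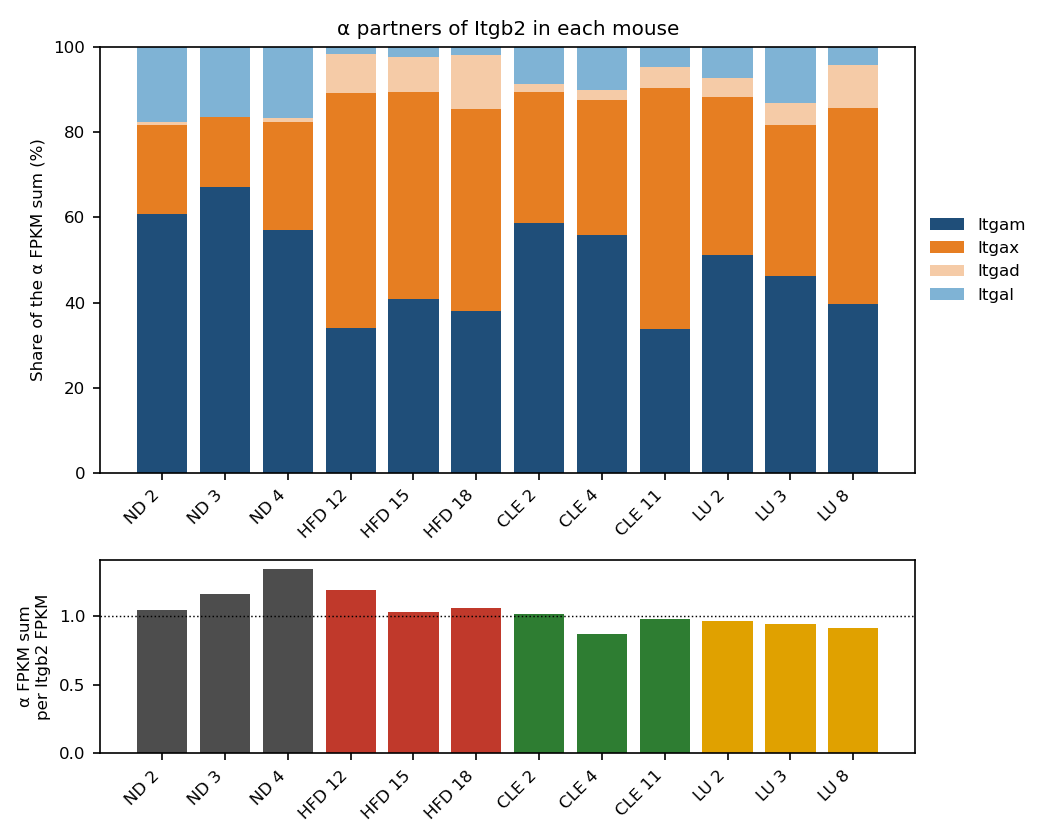
Upper panel, share of Itgam, Itgax, Itgad and Itgal in the sum of their FPKM (%, stacked to 100) in each of the 12 mice. Lower panel, that sum divided by the FPKM of Itgb2, with a dotted line at 1. The Itgal share is lowest in the 3 HFD mice, at 1.71 to 2.30%, the Itgax share is largest in the HFD mice and CLE mouse 11, and the lower bars lie between 0.868 and 1.34.

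Relative to Itgal, Itgam was 3.48, 4.11 and 3.43 in ND and 19.9, 17.8 and 19.7 in HFD. The ratio was 6.51 ± 0.89 in CLE and 6.52 ± 2.83 in LU, below every HFD mouse (exact permutation p = 0.1 each). LU mouse 3, with the ratio of 3.51, lay within the ND range. In that mouse the T cell marker sum was the highest of all libraries, 12.1 FPKM against 3.65 to 6.62 FPKM in the other libraries, and its part in the Itgal value was not tested.

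Among the transcripts of Itgam, ENSMUST00000064821 carried 63.9 ± 7.3% of the gene in ND and 48.0 ± 1.7% in HFD. ENSMUST00000106240 was near 0 in ND and at 10.4 ± 0.50 FPKM in HFD, a share of 16.8 ± 1.1%, and fell to 1.28 ± 0.44 FPKM in CLE and 1.74 ± 0.63 FPKM in LU without overlap. ENSMUST00000120355 likewise held 0.13 ± 0.23 FPKM in ND and 10.2 ± 2.5 FPKM in HFD. ENSMUST00000126475, which is not in GENCODE M21, held 25.9% of the gene in ND and 2.14% in HFD at levels that overlapped. These transcripts overlap one another, and the division of reads among them is an estimate of the authors' software. Summed by the GENCODE gene instead of the symbol, Itgam differed by 3.45 between HFD and ND (adjusted p = 5.6e-07).

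Itga4, the α subunit of the receptors for Vcam1, also rose and fell back. Its level was 1.48, 2.47 and 1.25 FPKM in ND and 9.90, 8.07 and 7.03 FPKM in HFD. CLE gave 2.64, 3.11 and 2.84 FPKM and LU 4.43, 3.96 and 3.08 FPKM, each between the ND and HFD mice without overlap. The log2 difference was 1.79 ± 0.17 in HFD against ND (4.82-fold, adjusted p = 7.6e-06), -1.26 in CLE against HFD (adjusted p = 0.000209) and -0.95 in LU against HFD (adjusted p = 0.00206). Itga4 lies on chromosome 2 from 79255426 to 79333123 (plus strand) and overlaps Cerkl on the other strand.

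Itgb7, the β partner of Itga4 in gut-homing lymphocytes and of Itgae, moved in the same direction by less. ND mice had 2.73, 4.15 and 3.18 FPKM and HFD mice 6.26, 8.82 and 8.21 FPKM. In CLE it measured 3.75, 4.17 and 5.25 FPKM, all below HFD, and in LU 6.05, 6.30 and 4.22 FPKM, overlapping HFD. The log2 difference was 1.01 ± 0.17 in HFD against ND (2.32-fold, adjusted p = 0.000528) and -0.70 in CLE against HFD (adjusted p = 0.00889), and the latter fell under the fold threshold at a pseudocount of 5 (-0.44). In LU against HFD the estimate was -0.43 with an adjusted p of 0.0847. Itgb7 spans 102215995 to 102231944 of chromosome 15 (minus strand).

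The partners of both subunits shifted in proportion. Itgb7 per Itga4 was 2.03 ± 0.46 in ND and 0.964 ± 0.290 in HFD, and 1.54 ± 0.27 in CLE and 1.44 ± 0.13 in LU, with HFD below all other mice (exact permutation p = 0.1 each). Itgb1, the widely expressed β1 subunit, was 157.6 ± 10.5 FPKM in ND and 190.7 ± 9.3 FPKM in HFD, which exceeded Itga4 100.1-fold and 23.4-fold, so Itga4 was the scarcer partner of that pair in every diet. Itgae, which binds E-cadherin together with Itgb7, was lower in HFD (log2 difference -0.65, adjusted p = 0.00523), and Itgae per Itgb7 was 0.620 ± 0.064 in ND and 0.124 ± 0.011 in HFD. The vessel ligand of the Itga4 and Itgb7 pair, Madcam1, was too low to be tested, at 0.091 ± 0.048 FPKM in ND and 0.008 ± 0.014 FPKM in HFD.

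Selplg measured 4.50, 6.51 and 4.99 FPKM in ND and 38.8, 33.2 and 35.1 FPKM in HFD. The CLE mice had 9.23, 9.04 and 14.2 FPKM and the LU mice 13.7, 14.9 and 14.5 FPKM. The 4 diets again separated into ND, HFD and an intermediate range that CLE and LU shared. Selplg was 6.69-fold higher in HFD than in ND (log2 difference 2.54 ± 0.16, adjusted p = 7.6e-07), and it fell by 1.66 in CLE (adjusted p = 3.4e-05) and by 1.26 in LU (adjusted p = 0.000326) on the log2 scale. All 3 calls held under every alternative tried. Selplg lies on chromosome 5 from 113818536 to 113832644 (minus strand).

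**Figure D3:**
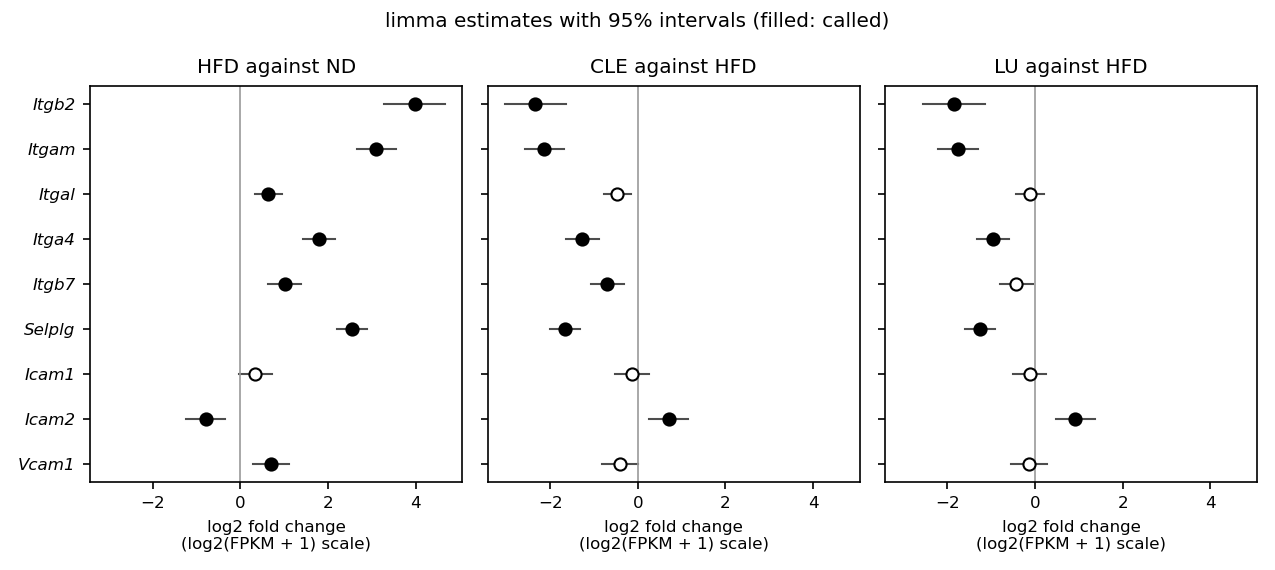
Difference of each of the 9 genes in 3 comparisons on the log2(FPKM + 1) scale, as limma estimates with 95% intervals from 3 mice per diet. Filled points passed the adjusted p and the fold, open points did not. Itgb2, Itgam, Itga4 and Selplg are filled in all 3 panels with the opposite sign in CLE and LU against HFD, and Icam2 is filled with the reverse directions.

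Icam1, the inducible ligand of LFA-1 and Mac-1 on endothelium and other cells, stayed within the spread of the mice. It was 10.2, 7.24 and 12.8 FPKM in ND, 13.2, 11.9 and 13.0 FPKM in HFD, 9.40, 12.1 and 13.3 FPKM in CLE, and 13.2, 10.97 and 10.6 FPKM in LU. The 4 diets overlapped. The log2 difference in HFD against ND was 0.34 (95% interval -0.04 to 0.72, adjusted p = 0.123), so a rise of up to that upper bound is not excluded by the interval. The estimates against HFD were -0.13 in CLE (-0.51 to 0.25) and -0.13 in LU (-0.51 to 0.25). Icam1 lies on chromosome 9 from 21015985 to 21028817 (plus strand), overlapped by the antisense gene Gm47079.

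Icam2, which endothelial cells carry constitutively, was the only member that fell with the HFD. ND mice had 18.5, 13.6 and 21.8 FPKM and HFD mice 8.10, 9.14 and 12.5 FPKM. CLE mice measured 12.4, 18.3 and 19.9 FPKM and LU mice 20.6, 20.0 and 17.4 FPKM. All LU mice exceeded all HFD mice, and CLE mouse 2 overlapped them. In limma Icam2 fell by 0.79 on the log2 scale in HFD against ND (adjusted p = 0.00727) and was higher by 0.71 in CLE (adjusted p = 0.0200) and by 0.91 in LU (adjusted p = 0.0073) than in HFD. Without the libraries with the letter R, where ND mouse 2 is the only ND mouse, the difference of HFD from ND was -0.85. The difference of CLE from HFD lost its call without those libraries (0.64, adjusted p = 0.0816) and at a pseudocount of 5 (0.55). That call was also lost without HFD mouse 12 (0.58), HFD mouse 15 (0.66), CLE mouse 4 (0.64) or CLE mouse 11 (0.58). The difference of LU from HFD kept its call in all 29 alternatives. Icam2 spans 106377656 to 106388075 of chromosome 11 (minus strand).

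Vcam1, the inducible ligand of α4 integrins, was 12.7, 7.99 and 8.72 FPKM in ND and 16.6, 15.8 and 16.3 FPKM in HFD. In CLE it was 9.35, 15.8 and 11.8 FPKM and in LU 13.5, 17.7 and 13.0 FPKM. HFD lay above ND and CLE without overlap and within the range of LU. The gene was 1.66-fold higher in HFD than in ND (log2 difference 0.70 ± 0.19, adjusted p = 0.00969), and its estimates against HFD were -0.40 in CLE (95% interval -0.82 to 0.02) and -0.14 in LU (-0.56 to 0.27). The call in HFD against ND was lost at a pseudocount of 5 (0.53) and without ND mouse 3 (0.58). Without the libraries with the letter R, where ND mouse 2 is the only ND mouse, the difference was 0.34.

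Of the Vcam1 transcripts, a short one separated HFD from the other diets and the full-length one did not. The 2 transcripts overlap, and the division of reads between them is an estimate of the authors' software. The full-length transcript, ENSMUST00000029574, had 9.14, 6.34 and 7.68 FPKM in ND and 11.3, 10.4 and 9.13 FPKM in HFD, which overlapped narrowly, at 9.14 and 9.13 FPKM (exact permutation p = 0.2). A shorter transcript assembled by the authors, from 116123479 to 116129816 of chromosome 3 (minus strand), had 3.52, 1.65 and 1.03 FPKM in ND and 5.26, 5.47 and 6.94 FPKM in HFD. It fell to 1.78, 3.20 and 3.32 FPKM in CLE and measured 3.50, 2.57 and 4.62 FPKM in LU, so HFD lay above all 9 other mice (exact permutation p = 0.1 in each comparison, the smallest possible). Without the libraries with the letter R the ND value is that of mouse 2 alone, 3.52 FPKM, still below HFD. Its share of the gene was 20.1 ± 8.0% in ND, 36.3 ± 5.7% in HFD, 22.5 ± 4.8% in CLE and 25.3 ± 10.5% in LU. Without transcripts of this class, those that share a splice junction with an annotated transcript but differ from it, Vcam1 differed by 0.38 between HFD and ND with an adjusted p of 0.184 and was not called.

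GENCODE M21 annotates a protein-coding short form of Vcam1, ENSMUST00000196449, that shares exon 2 to exon 4 with the full-length form in their whole length and ends in an exon from 116122280 to 116123793, between exon 4 and exon 5 of the 9 exons of the full-length form. The end of the assembled short transcript at 116123479 falls inside that terminal exon. A truncated VCAM-1 that is anchored to the membrane by a lipid is known in mice. Exon positions of the assembled transcript are not given, so the match is by its end alone. Vcam1 as a whole spans 116109949 to 116129688 and is overlapped by the antisense gene Gm43109.

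**Figure D4:**
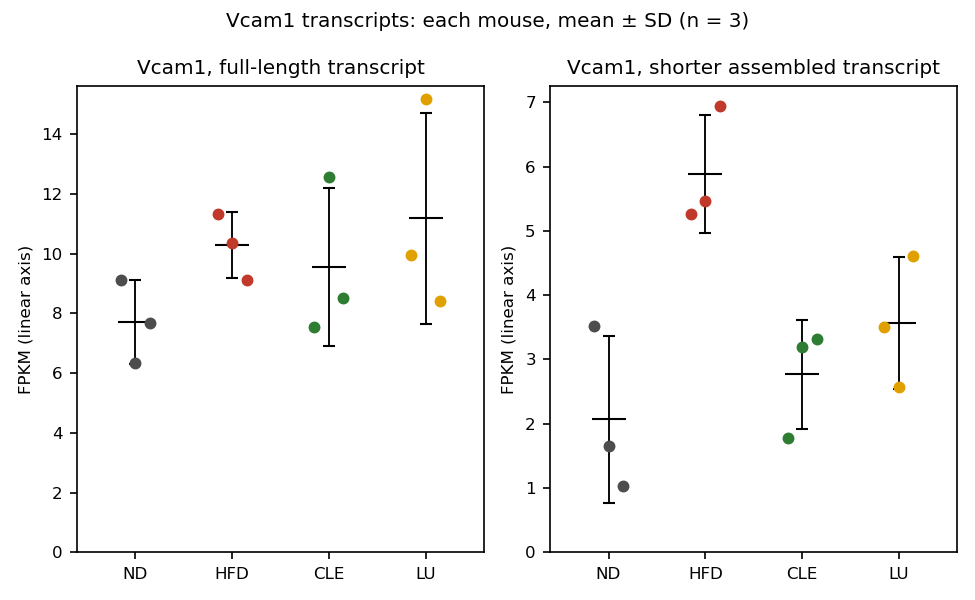
FPKM (linear axis from 0) of the full-length and of the shorter assembled Vcam1 transcript in every mouse, with the mean ± SD of 3 mice in black. HFD mice overlap the other diets in the full-length transcript and lie above all other mice in the shorter one, from 5.26 to 6.94 FPKM.

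Both supplements lowered Itgb2, Itgam, Itga4 and Selplg and raised Icam2, and CLE also lowered Itgb7. In CLE against HFD, 6 of the 9 members were called, Icam2 as higher and Itgam, Itgb2, Itga4, Itgb7 and Selplg as lower, where 16.5% of all genes were called (6.33% higher, 10.1% lower). The mice of CLE and HFD did not overlap in 7 members, against 50.6% of all genes. In LU against HFD, 5 were called, Icam2 as higher and Itgam, Itgb2, Itga4 and Selplg as lower, where 12.4% of all genes were called (4.81% higher, 7.64% lower), and 5 members did not overlap, against 47.6%. Without the libraries with the letter R, 5 members were called in each of the 2 comparisons. Of 12775 genes tested, 1895 were then called in CLE against HFD and 1474 in LU against HFD. Without CLE mouse 11, 5 members were called in CLE against HFD, where 2320 of 12775 genes were. Both comparisons and that of HFD with ND use the same 3 HFD mice, so a chance deviation of these mice would enter all of them.

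Between CLE and LU, which differ in the supplement and its dose, no member was called by limma, and 0.00783% of all genes were. All 9 members overlapped, and 9.03% of all genes did not. At an unadjusted limma p under 0.05 there were 2, Itgal (log2 difference -0.35, 95% interval -0.67 to -0.04) and Selplg (-0.40, -0.75 to -0.06), both lower in CLE. The share of all genes under this unadjusted p was not counted. The interval for Itgb2 ran from -1.19 to 0.22, so these data do not show that the 2 diets act alike. Against ND, CLE was higher in 3 members, Itgam (0.97), Itgb2 (1.64) and Selplg (0.88), where 2.91% of all genes were called (2.06% higher, 0.853% lower), and LU in 4, Itgam (1.35), Itgb2 (2.12), Itga4 (0.84) and Selplg (1.29), where 6.59% were (4.97% higher, 1.62% lower). No member was called lower than in ND in either group. The values were fully separated from ND in 4 members for CLE, against 24.7% of all genes, and in 7 for LU, against 30.1%. The call of Itgam in CLE against ND was the least stable of these 3, with an adjusted p of 0.0783 without ND mouse 2, 0.0568 without ND mouse 4, 0.0515 without CLE mouse 4 and 0.0803 without CLE mouse 11 (log2 difference 0.84, 0.93, 1.04 and 0.78), of 0.0520 with no filter on low genes, and of 0.111 with the single transcript of highest mean (0.68). All 3 calls of CLE against ND were lost without ND mouse 2, where 124 of 12775 genes tested were called. They were also lost when only these 2 groups were fitted, where 0 of 12775 genes were called. Without the libraries with the letter R, ND mouse 2 is the only ND mouse. CLE then differed from ND by 1.31 in Itgam, 1.86 in Itgb2 and 1.18 in Selplg. LU then differed from ND by 2.26 in Itgb2 and 0.86 in Itga4. Without LU mouse 8, Itgal (0.65, adjusted p = 0.0268) and Itgb7 (0.73, adjusted p = 0.0336) were called higher in LU than in ND as well.

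Markers of leukocytes, vessels, fat cells and mesothelium moved with these results. All 5 pan-leukocyte markers (Ptprc, Cd52, Cd53, Laptm5 and Coro1a) were higher in HFD than in ND and lower in CLE and LU than in HFD. They summed to between 81.7 and 119 FPKM in ND, 597 and 657 in HFD, 155 and 261 in CLE, and 240 and 278 in LU. Of 7 macrophage markers 6 rose with the HFD, and their sum went from between 324 and 490 FPKM in ND to between 2156 and 2482 FPKM in HFD. Of 7 T cell markers 2 could be tested and none was called, and the sums overlapped at 3.65 to 6.05 FPKM in ND and 3.76 to 6.62 in HFD. Of the 4 B cell markers 1 was tested and not called, with sums of 2.76 to 6.61 FPKM in ND and 1.33 to 2.32 in HFD. Of 6 neutrophil markers 2 rose and 1 fell in HFD, with sums of 6.93 to 15.7 FPKM in ND and 73.9 to 123 FPKM in HFD, and Ly6g, which defines mouse neutrophils, was listed at 0 in every library. Endothelial markers went the other way, with 4 of 8 lower in HFD, 6 higher in CLE and 7 higher in LU, and sums of 397 to 614 FPKM in ND, 246 to 386 in HFD, 445 to 660 in CLE and 488 to 568 in LU. All 6 adipocyte markers were lower in HFD than in ND, and 6 were higher in CLE and 3 in LU than in HFD. Their sums were 36180 to 37413 FPKM in ND, 17698 to 20199 in HFD, 30728 to 35215 in CLE and 29336 to 35866 in LU. Of 5 mesothelial markers 4 were lower in HFD than in ND, and 1 was higher in CLE and in LU than in HFD, with sums of 9.43 to 53.3 FPKM in ND, 2.29 to 7.01 in HFD, 6.90 to 11.9 in CLE and 7.48 to 15.6 in LU. The part of cell numbers in the members' levels was not tested.

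Each member was therefore set against the markers of its own side in the same library, as the log2 ratio of the member to the geometric mean of the list, with 1 FPKM added to every gene. To the pan-leukocyte list, Selplg stayed within the spread of the mice, at -1.49 ± 0.15 in ND, -1.37 ± 0.06 in HFD, -1.43 ± 0.08 in CLE and -1.43 ± 0.06 in LU, and the diets overlapped. From ND to HFD the ratio was higher by 0.12, by 0.25 without overlap when nothing was added, and it was -0.19 at a pseudocount of 5. Without the libraries with the letter R, where ND mouse 2 is the only ND mouse, the difference was 0.26. Itgb2 rose faster than the list, by 1.55 from ND to HFD, and Itgam by 0.68, both without overlap. Itgal fell behind by 1.79 and Itgb7 by 1.41, also without overlap, although their own levels rose, and with nothing added by 1.60 and 1.29 without overlap. For Itga4 the outcome depended on the added FPKM, with a difference of -0.64 without overlap when 1 was added and of -0.19 with overlap when nothing was. In CLE and LU against HFD, the ratio of Itgb2 was lower by 0.73 and 0.65, that of Itgam by 0.53 and 0.56, and that of Itgal was higher by 1.14 and 1.09, each without overlap. The ratio of Itga4 overlapped in both comparisons, but was separated from HFD without CLE mouse 11 (0.55) in CLE and without LU mouse 8 (0.40) in LU. With nothing added, it was separated without CLE mouse 11 in CLE (0.33) and overlapped without LU mouse 8 in LU (0.28).

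To the endothelial list, the log2 ratio of Icam2 was -1.48 ± 0.05 in ND, -1.54 ± 0.03 in HFD, -1.64 ± 0.09 in CLE and -1.42 ± 0.18 in LU, and HFD overlapped with each of the others. Every CLE mouse, at -1.74 to -1.55, lay below every ND mouse, at -1.53 to -1.44, a difference of -0.17. The difference of HFD from ND was -0.06, and -0.10 without overlap when nothing was added. The difference of LU from HFD was 0.12, -0.0033 at a pseudocount of 5, and 0.22 without overlap when LU mouse 8 was left out, and CLE was below HFD without overlap (-0.15) without the libraries with the letter R. Icam1 was higher by 1.07 and Vcam1 by 1.43 in HFD than in ND, and both were lower in CLE (-0.95 and -1.21) and in LU (-0.92 and -0.94) than in HFD, without overlap. The own level of Icam1 was not called in any comparison, at 0.34 in HFD against ND and -0.13 in CLE and in LU against HFD. The median log2 difference of the endothelial markers was -0.62, 0.81 and 0.80 in the same 3 comparisons. The separation of the HFD mice in the Icam1 ratio therefore lay more in the markers than in Icam1. The own level of Vcam1 differed by 0.70 in HFD against ND, which was called. Against HFD it differed by -0.40 in CLE and -0.14 in LU, neither of which was called. In CLE and LU the fall of the Vcam1 ratio thus also lay more in the markers than in Vcam1. Other cells of fat, macrophages among them, can express Icam1 and Vcam1, and the source of these transcripts was not tested. Exact permutation p was 0.1 for each ratio without overlap over 3 mice a group.

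**Figure D5:**
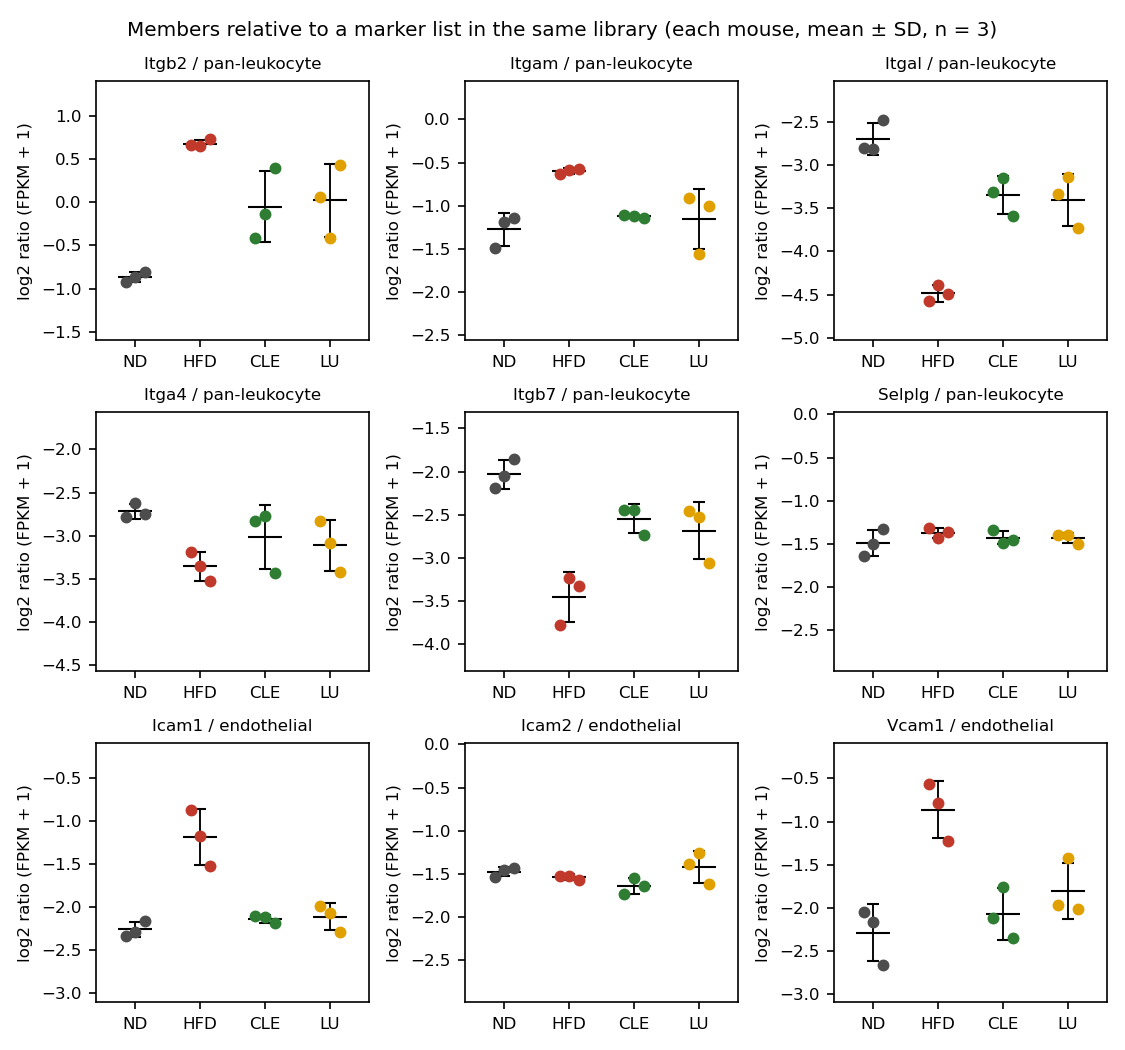
Log2 ratio of each member to the geometric mean of the pan-leukocyte or endothelial markers in the same library (FPKM + 1), in every mouse with the mean ± SD of 3 mice; each vertical axis spans the same range of log2 units. Selplg and Icam2 overlap between HFD and every other diet, Itgb2, Itgam, Icam1 and Vcam1 are high in HFD, and Itgal and Itgb7 are low in HFD.

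Levels per length also changed their order. In ND Icam2 was the most abundant member with 17.9 ± 4.1 FPKM, above Icam1 with 10.1 ± 2.8, while Icam1, Vcam1, Itgb2, Itgam and Selplg formed a run of which no neighbours were separated. Itgal and Itga4, at 1.73 FPKM each, were the lowest and overlapped. In HFD the order was Itgb2, Itgam, Selplg and Vcam1, each separated from the next, then Icam1, Icam2, Itga4 and Itgb7, each overlapping with the next, and Itgal last and apart. In CLE Itgb2 led with 32.3 ± 18.7 FPKM but overlapped with Icam2, and in LU it led with 42.5 ± 13.8 FPKM above Icam2 at 19.3 ± 1.7.

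The other genes of leukocyte adhesion were read from lists. For comparison with the counts in these lists, 25.6% of all genes tested were called in HFD against ND. In CLE and in LU against HFD these shares were 16.5% and 12.4%. Of 12 other integrin subunits 11 were tested, 5 were higher and 1 lower in HFD than in ND, and 4 were lower in CLE and in LU than in HFD. Besides Itgax, Itgad and Itgae, they include Itga5, the fibronectin receptor subunit (1.18), and Itgav, the vitronectin receptor subunit (0.86), as log2 differences of HFD from ND. Of 10 other integrin ligands 6 were tested, 3 were higher and 1 lower. Spp1, or osteopontin, went from 0.522 ± 0.447 to 34.4 ± 1.9 FPKM (4.58) and Fn1, or fibronectin, from 95.6 ± 19.7 to 273.7 ± 7.0 FPKM (1.53). Spp1 and Fn1 are matrix ligands of integrins, Spp1 of α4 integrins too. F11r, a junctional ligand of LFA-1, was lower by 0.90 on the log2 scale (adjusted p = 0.000979) and Thy1 was higher by 0.81.

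Selplg is caught by selectins on the vessel wall. Of 14 selectins and makers of their ligands, 11 were tested, 3 were higher and 2 lower in HFD. Selp, or P-selectin, measured 2.79 ± 1.10 FPKM in ND and 3.13 ± 0.80 FPKM in HFD (log2 difference 0.15, adjusted p = 0.627). Sele, or E-selectin, was too low to be tested, with a mean of 0.167 ± 0.082 FPKM in HFD. Gcnt1, an enzyme that builds the sugar branch by which PSGL-1 binds selectins, was higher by 2.09 and fell by 1.70 in CLE and by 1.46 in LU against HFD on the log2 scale. Cd44 (3.33) and Spn (0.95), glycoproteins of leukocytes, were higher in HFD, and Podxl, a sialomucin of endothelium, was lower (-1.03).

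Of 14 genes of integrin activation in leukocytes 13 were tested, and 8 were higher and 1 lower in HFD than in ND. Fermt3, or kindlin-3, which binds the tail of β integrins to switch them on, went from 4.15 ± 0.41 to 26.2 ± 1.4 FPKM (log2 difference 2.40, adjusted p = 6.2e-07) and fell by 1.72 in CLE and 1.42 in LU against HFD. The adaptor Fyb (2.55), Apbb1ip, which carries the Rap signal to talin (1.90), and Cytip (1.27), a partner of cytohesin, also rose. In CLE 7 of these genes were lower and 1 higher than in HFD, and in LU 4 were lower and 2 higher. Of 11 genes of passage through the vessel wall, all tested, 2 were higher and 1 lower in HFD: Adam17, the protease that sheds adhesion molecules (1.21), Msn, or moesin (0.68), and Esam, an endothelial junction protein (-0.62). That is close to the share of 25.6% over all genes tested. The median log2 difference of this list was -0.05, against -0.02 for all genes, so the list as a whole did not stand out.

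Genes whose pattern over the 12 libraries was most like that of a member were found by the root mean square of the difference of centred log2 values. The nearest to Itgam was Dock2 (0.108 log2 units), to Itgb2 Myo1f (0.127), to Selplg Lyz2 (0.114), to Itga4 Pik3cg (0.160), to Itgb7 Cmtm7 (0.137), and to Itgal Gpr132 (0.0934), where the members' own SD over the libraries were 1.20, 1.53, 0.973, 0.707, 0.436 and 0.314. To Icam2 it was Ushbp1 (0.0973), with Emcn of the endothelial list ranked 3, and to Vcam1 Hcst (0.161), with own SD of 0.444 and 0.358. For Vcam1 the distance was a larger part of its own spread than for these other members.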

How the data were processed

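mRNA-Seq libraries (TruSeq, paired-end) of eWAT from 3 mice per diet were analysed. The authors deposited FPKM per transcript; per the labels' processing notes CASAVA 1.8.2, Bowtie2 2.2.3, TopHat2 2.0.12 and Cufflinks 2.2.1 were used, and counts and depth were not used here. The build is not given in the sources used here; 77000 of 78786 known transcripts were in GENCODE M21 (GRCm38), 87.6% with the same start and end. Of 15 FPKM columns, 12 matched a sample (the CLE columns are headed CLL, and the column headed MD4 was taken as ND mouse 4), and 3 were not used. Columns of the authors' own comparisons (fold changes and tests) were not used either.

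FPKM of annotated transcripts and of assembled ones with class code = or j were summed per gene (members by symbol, others by GENCODE gene). This gave 435095 to 455040 FPKM per library. The rest, 65.8 to 92.9% of the total FPKM of a library, was left out. Genes with at least 1 FPKM in at least 3 libraries were tested on log2(FPKM + 1) with limma 3.58.1 in R 4.3.3, with 1 coefficient per diet and no covariate, and a call needed a fold over 1.5 and a p under 0.05 after Benjamini-Hochberg adjustment over all genes. A log2 difference on this scale understates the change of low genes. Single values were compared by exact two-sided permutation tests, whose smallest p is 0.1. The procedure was tested on simulated data. The members and lists were chosen with earlier results of these data known. Genes outside the members were named as the up to 4 largest changes called in HFD against ND in each list, besides partners and selectins; Itgb1, Itgae and Madcam1 are such partners, and 2 genes that the rules name are not reported here. Alternatives changed the pseudocount, filter, scaling, fit, transcripts summed and libraries; the sums by the GENCODE gene, the alternatives to the shares and ratios of subunits, and the ratios to markers with nothing added or without single libraries were chosen after seeing the data. Mouse numbers shared between diets did not pair the libraries: correlations of deviations from group means were -0.099 to 0.189 over 5 pairs.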

Additional observations from a re-analysis of the deposited data

How the results depend on the processing

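Over 1554 alternative estimates of the 54 log2 differences (9 members, 6 comparisons), 1508 kept their direction and side of the threshold, 33 lost a call and 13 gained one, and none with a call in either fit reversed; 13 values that were called in neither fit changed sign. The members called in CLE against ND went from 3 to 0 when only the 2 groups were fitted, where 0 of 12775 genes were called. They ranged from 0 to 4 when 1 mouse was left out, with 0 without ND mouse 2, where 124 of 12775 genes were called. Without the libraries with the letter R, ND mouse 2 is the only ND mouse, so that fit holds no spread among ND mice. These alternatives fit fewer libraries. The mouse number was also used as a replicate block (consensus correlation 0.0873). The members called were then 8 in HFD against ND, 6 in CLE against HFD and 5 in LU against HFD. Of 12775 genes tested, 3243, 2088 and 1596 were called in these 3 comparisons. In CLE against LU, CLE against ND and LU against ND, 0, 3 and 5 members were called, where 1, 411 and 877 genes were. Itgb7 was gained in LU against ND (0.59, adjusted p = 0.0365, limma), and no other call changed. At a pseudocount of 5 the ratio of Icam2 to the endothelial list in LU against HFD reversed from 0.12 to -0.0033 and that of Selplg to the pan-leukocyte list in HFD against ND from 0.12 to -0.19; the cause was not tested. Of 270 alternative values of the ratios to markers, 25 others moved by over 1 SD. HFD cannot be compared within the libraries with the letter R. Depth is unknown.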
